A study of Mus musculus with 9 samples.

Results

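The genes described here are 38 cell cycle and DNA replication genes, picked by a list of symbols that was drawn up with earlier results of these data known, in RNA sequencing of mouse brown adipose tissue. All 38 were listed in each of the 3 tables that the authors made, which held 16679, 16312 and 16560 genes (16937 genes in any table). The study asked how cold and loss of the amino acid sensing kinase GCN2, encoded by Eif2ak4, change the transcripts of this heat-producing fat. WT RT mice were wild type and held at 23 °C, WT Cold mice were wild type and spent 8 h at 4 °C, and GCN2 KO Cold mice lacked GCN2 in the whole body and spent 8 h at 4 °C. Each group had 3 libraries. All mice were adults on the C57Bl/6J background, food was present throughout, and the study used both sexes without the labels giving the sex of a library. The mice lived alone in their cages before and during the cold. Knockout mice at 23 °C were not analysed here, so whether the response to cold differed between genotypes was not tested. The title of 1 knockout sample also carries the letters WT, and its genotype label reads GCN2 KO.

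A cell that divides first licenses its origins of replication by loading the MCM ring onto DNA, then turns the ring into the active CMG helicase with CDC45 and the GINS complex. E2F transcription factors switch on the genes for this step, for the sliding clamp and for the making of deoxynucleotides, and FOXM1 with other factors switches on the later mitotic genes. Mitotic cyclins, kinases, motors and centromere proteins then divide the chromosomes. Brown fat of an adult mouse holds few dividing cells, which are mostly known to be precursors, endothelial cells and immune cells rather than mature brown adipocytes. In bulk tissue, fewer cells of a type and less RNA per cell cannot be told apart.

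The members were described by role. There were 11 genes of origin licensing and the CMG helicase (Mcm2 to Mcm7, Cdc45, Cdc6, Cdt1, Gins1 and Gins2) and 5 genes of the sliding clamp and nucleotide supply (Pcna, Rrm1, Rrm2, Tyms and Tk1). A further 7 genes were G1/S regulators (Ccne1, Ccne2, E2f1, E2f8, Foxm1, Uhrf1 and Chek1), and 9 were mitotic cyclins, kinases and their partners (Cdk1, Ccna2, Ccnb1, Ccnb2, Aurka, Aurkb, Plk1, Bub1 and Birc5). The last 6 encode chromosome and spindle proteins (Mki67, Top2a, Kif11, Kif20a, Cenpe and Cenpf).

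In the comparisons below, 10 of the 38 members passed the test at least once, and for 7 of those 10 the RefSeq table of promoters had an entry. Their 150 bases before the transcription start are shown because these genes moved, and because replication genes are a textbook group of E2F targets. The sequences are from RefSeq on GRCm38.p6, 5′ to 3′ on the strand of the gene, and the files themselves were made on GRCm39. Capitals mark the letters TTCCCGC or TTGGCGC (E2F letters) and CCAAT, each read on either strand. The E2F letters TTGGCGC and CCAAT can share letters.
Mcm2, chr6:88898781-88898930 (minus strand): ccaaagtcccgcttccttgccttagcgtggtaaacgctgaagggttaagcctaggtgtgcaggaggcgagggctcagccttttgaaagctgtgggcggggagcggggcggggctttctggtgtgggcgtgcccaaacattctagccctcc
Mcm3, chr1:20820313-20820462 (minus strand): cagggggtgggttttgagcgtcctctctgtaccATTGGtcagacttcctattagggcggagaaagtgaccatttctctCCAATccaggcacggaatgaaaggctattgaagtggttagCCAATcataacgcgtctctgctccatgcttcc
Mcm5, chr8:75109359-75109508 (plus strand): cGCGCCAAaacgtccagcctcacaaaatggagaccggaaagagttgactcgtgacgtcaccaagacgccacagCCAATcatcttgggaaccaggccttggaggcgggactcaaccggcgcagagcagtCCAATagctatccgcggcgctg
Mcm7, chr5:138171884-138172033 (minus strand): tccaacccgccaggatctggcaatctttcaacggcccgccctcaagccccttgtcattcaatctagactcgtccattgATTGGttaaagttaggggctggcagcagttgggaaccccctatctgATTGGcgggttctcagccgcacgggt
E2f1, chr2:154569427-154569576 (minus strand): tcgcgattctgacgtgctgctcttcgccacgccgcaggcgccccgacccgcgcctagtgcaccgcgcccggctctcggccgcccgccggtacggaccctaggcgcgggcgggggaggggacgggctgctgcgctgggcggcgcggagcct
Rrm1, chr7:102441545-102441694 (plus strand): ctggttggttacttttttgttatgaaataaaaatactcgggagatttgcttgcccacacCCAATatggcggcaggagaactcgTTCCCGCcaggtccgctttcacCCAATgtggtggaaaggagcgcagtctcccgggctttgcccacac
Tyms, chr5:30073626-30073775 (minus strand): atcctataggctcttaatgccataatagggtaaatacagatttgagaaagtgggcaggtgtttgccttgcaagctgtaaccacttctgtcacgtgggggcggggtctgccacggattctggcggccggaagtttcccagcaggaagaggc

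Of the 38 members, 30 had a listed promoter. In the 250 bases before the start, 10 of these 30 promoters (33.3%) held the E2F letters, against 9.57% of the 11909 promoters of genes listed in all tables and 5.71% of all 27025 promoters of the same length. CCAAT was found in 22 of 30 (73.3%), against 35.8% of the promoters of listed genes and 34.5% of all promoters. The letters TTTGAA, known as CHR and not capitalised above, were found in 8 of 30 (26.7%), against 11.03% of the promoters of listed genes and 16.3% of all promoters. Mcm2, E2f1 and Tyms hold neither the E2F letters nor CCAAT in the stretch shown. Among the 7 members shown, Mcm5, Mcm7 and Rrm1 held the E2F letters within the 250 bases, and in Mcm7 they lay before the stretch that is printed. Among the 23 members with a promoter that passed in no comparison, 7 held them. These matches describe letters only.

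Depth ran from 27058799 to 30768064 recovered reads per library. A member had between 12 reads (Bub1) and 1794 reads (Pcna) in a library, so the low mitotic members carried counting error as well as the spread between samples. Whole reads were recovered for 100% of the values in the tables, within a tolerance of 0.01 reads. Levels per library are counts normalized with size factors set over all 9 libraries, called normalized counts here, and each is compared with the same gene in other libraries. The letters A, B and C name the libraries of a group by the order of their codes in the files, where no column names a mouse. The labels number them as biological replicates. All WT RT codes start with one prefix and all cold codes with another, so the set of libraries and the cold cannot be told apart in any comparison with WT RT.

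The targeted gene did not separate the genotypes as its label would have it. In the table of both cold groups, Eif2ak4 stood at 356.1 ± 13.3 normalized counts (SD, n = 3) in the libraries that carry the GCN2 KO Cold label and at 209.0 ± 33.2 (SD, n = 3) for WT Cold. The log2 fold change was 0.78 ± 0.15 (SE; adjusted p = 0.0932, limma), and DESeq2 gave an adjusted p of 0.0028. The counts are summed over all exons of the gene, so the deleted part was not seen on its own. These libraries are therefore named by their label, as KO-labelled libraries (GCN2 KO Cold), throughout.

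Some markers of other cell types moved with the groups, and their part in the results for the members was not tested. All 12 monocyte and macrophage markers were lower by sign in both cold groups against WT RT, and 9 of them fell in WT Cold and 11 in the KO-labelled libraries. Their summed level was 11196 to 20966 normalized counts in WT RT, 5763 to 7879 in WT Cold and 4494 to 6334 in the KO-labelled libraries. The preadipocyte and fibroblast sum was 25962 to 29882, 20892 to 23171 and 15543 to 19266 in the same order, and 5 of 10 markers fell in WT Cold and 6 in the KO-labelled libraries against WT RT. The 10 brown adipocyte markers, of which Fabp4 and Ucp1 were the most abundant, summed to 512439 to 587239, 758640 to 801824 and 955804 to 980283, so the labelled tissue was seen by its own markers in each library. Against WT RT, 5 of these 10 rose and 1 fell in WT Cold, and 7 rose and 0 fell in the KO-labelled libraries. The endothelial sum was 20350 to 24101, 26467 to 29751 and 22615 to 27024, and 3 of 10 markers rose in WT Cold, while 3 fell and 2 rose in the KO-labelled libraries against WT RT. The sum of 11 lymphocyte markers was low, at 292.3 to 412.0, 235.1 to 307.6 and 300.4 to 375.0, and 1 marker fell in WT Cold. Red cell markers summed to 6861 to 9362, 16827 to 65371 and 33920 to 64278, and against WT RT 5 of 6 rose in WT Cold and 6 of 6 in the KO-labelled libraries. Skeletal muscle markers summed to 70145 to 80928, 69522 to 110264 and 9284 to 41380, and against WT RT 1 of 10 rose in WT Cold and 8 of 10 fell in the KO-labelled libraries. Of all genes, 14.1% fell and 13.6% rose in WT Cold against WT RT, and 17.8% fell and 16.4% rose in the KO-labelled libraries. The share of lymphocyte markers that fell in WT Cold (9.09%) and of muscle markers that rose there (10%) were below these. No marker was at 0 in any library.

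Expressed per length, the sliding clamp gene Pcna was the most abundant member, at 17.8 CPM per kilobase of exon averaged over the 9 libraries. Mcm7 followed with 3.49 and Rrm1 with 3.47, and the lowest was Cenpf with 0.131. Length here is the union of all annotated exons of a gene, 4426 bases for Mcm7 and 11012 for Rrm1, and this order depends on it. Without division by length, Rrm1 had 38.2 CPM and Mcm7 15.4. Pcna and Rrm1 alone took 19.9% and 17.7% of the summed CPM of the members. The 3 lowest members by CPM were Bub1 (0.964), Chek1 (1.15) and Foxm1 (1.17).

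**Figure D1:**
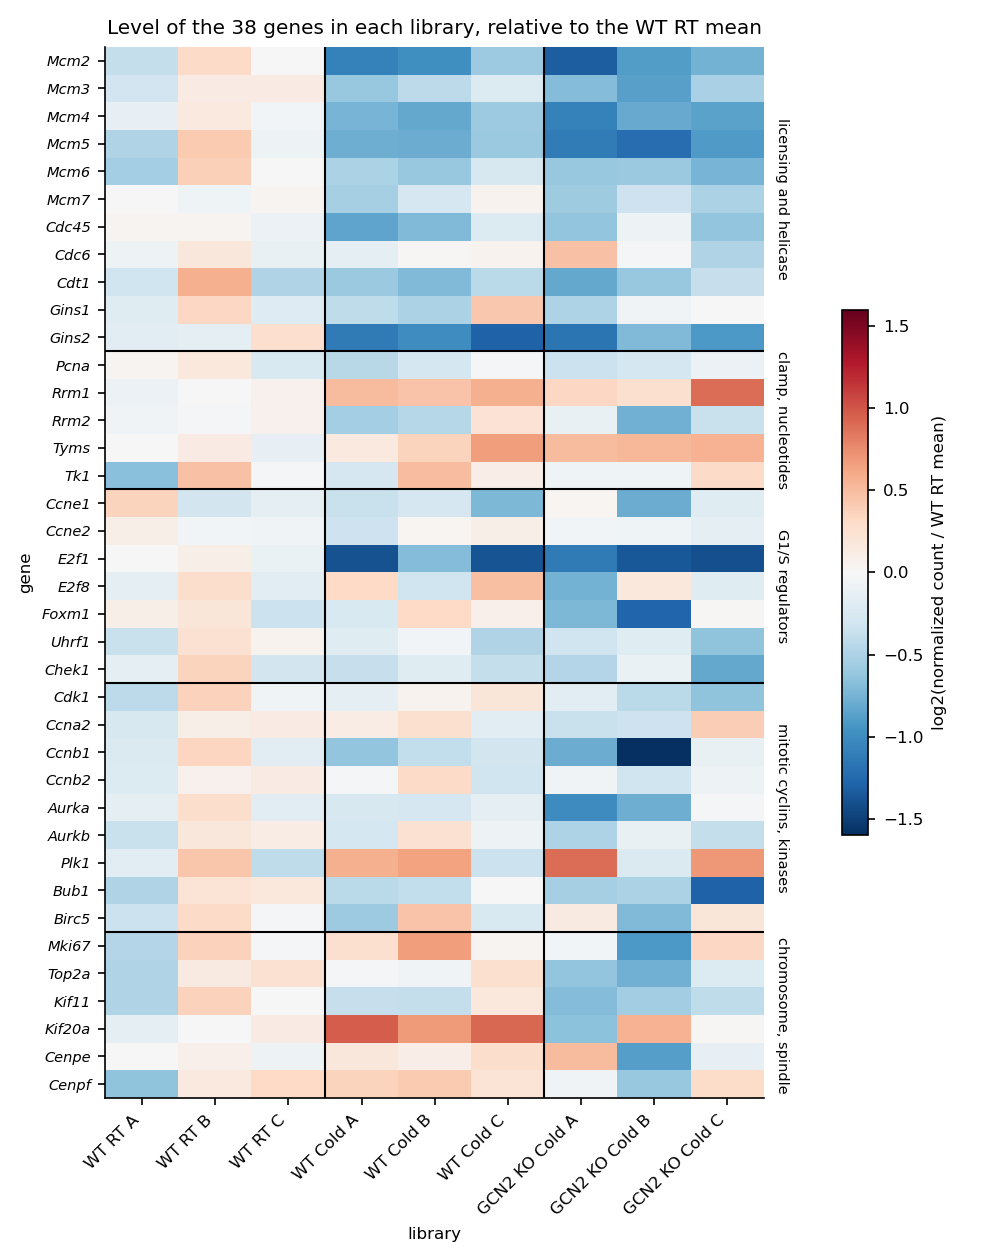
Heat map of the 38 genes (rows, grouped by role) in the 9 libraries (columns); colour gives the log2 ratio of the normalized count to the WT RT mean of that gene. The helicase rows are mostly blue in both cold groups, Rrm1 and Tyms are red there, Kif20a is red in WT Cold, and the mitotic rows are mixed.

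In WT Cold against WT RT, 3 of 11 helicase genes and E2f1 fell, Rrm1 and Kif20a rose, and no mitotic cyclin or kinase passed. At an adjusted p under 0.05, Mcm2, Mcm4, Gins2 and E2f1 fell and Rrm1 and Kif20a rose, and the other 32 members did not pass. With all 9 libraries in a single fit on CPM, 7 members fell, with Cdc45, Mcm3 and Mcm5 added, and 0 rose. The 4 of 38 that fell stand beside 14.1% of all genes tested that were lower at this threshold, and the 2 that rose beside 13.6% that were higher. With an absolute log2 fold change over 1 as well, only Gins2 and E2f1 of the 38 were called, beside 8.14% of all genes in either direction. The shares of the members that fell (10.5%) and rose (5.26%) were thus below those of all genes. By sign, 25 were lower and 13 higher. The median log2 fold change of the members was -0.15, against 0.00 for all genes tested, and it was -0.04 without WT Cold library A and -0.22 without WT RT library A.

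The 11 licensing and helicase genes were all lower in WT Cold by sign, and 3 of them passed (27.3%, beside 14.1% of all genes). Under the other settings 2 to 6 of them fell, with 5 without WT Cold library C and 6 with all 9 libraries in a single fit on CPM. Their median log2 fold change was -0.50, and under the other settings 9 to 11 of them were lower. Without WT RT library B the median was -0.33. Their summed level was 2018, 2634 and 2314 normalized counts in WT RT libraries A, B and C, and 1466, 1561 and 1948 in those of WT Cold. The groups did not overlap in this sum, and WT Cold library C came closest to WT RT. Monocyte and macrophage sums, and preadipocyte and fibroblast sums, were lower in the same libraries (above). Brown adipocyte, endothelial and red cell sums were higher, and the part of any of these was not tested.

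Gins2 encodes a subunit of the GINS complex, which joins the MCM ring in the active helicase. It had 75.7, 77.1 and 103.0 normalized counts in WT RT and 38.8, 42.8 and 34.7 in WT Cold, and every cold library lay below every room temperature library. The log2 fold change was -1.11 ± 0.22 (SE; adjusted p = 0.00939, limma). In GENCODE M21, 67.3% of the exon bases of Gins2 are shared with Gse1 on the opposite strand, so reads of both genes may be mixed. Gse1 itself had 367.9 ± 49.4 normalized counts in WT Cold and 351.4 ± 16.4 in WT RT (SD, n = 3).

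The MCM ring is a hexamer of the products of Mcm2 to Mcm7. Mcm4 had 281.8, 344.3 and 298.8 normalized counts in WT RT and 183.4, 174.3 and 206.2 in WT Cold. The groups were apart, and Mcm4 fell with a log2 fold change of -0.71 ± 0.14 (SE; adjusted p = 0.00780, limma). Mcm2 had 171.3, 275.8 and 222.7 in WT RT and 105.8, 113.6 and 149.1 in WT Cold, with WT RT library B highest. It fell with a log2 fold change of -0.85 ± 0.22 (SE; adjusted p = 0.0240, limma). Without WT RT library B, WT RT library C, WT Cold library A or WT Cold library B, the adjusted p of Mcm2 lay above 0.05, up to 0.0792.

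Mcm5 had 117.4, 220.1 and 155.9 normalized counts in WT RT and 96.1, 94.6 and 109.2 in WT Cold, again with no overlap. Its log2 fold change of -0.67 ± 0.24 (SE) had an adjusted p of 0.0703 (limma). Cdc45, which joins the ring to make the helicase, had 226.1, 224.4 and 205.1 in WT RT and 121.3, 134.5 and 187.9 in WT Cold. Its log2 fold change was -0.59 ± 0.19 (SE; adjusted p = 0.0510, limma). DESeq2 on the recovered reads passed Cdc45 (adjusted p = 0.0381) and Mcm5 (adjusted p = 0.0345) as well as the 6 members named above.

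Mcm3, Mcm6 and Mcm7 overlapped between the groups, with log2 fold changes of -0.40, -0.41 and -0.25. Mcm7 was the most variable of these in the cold, with 357.0, 428.3 and 535.0 normalized counts in WT Cold against 519.2, 493.3 and 533.5 in WT RT. The loading factors Cdc6 and Cdt1 had log2 fold changes of -0.02 and -0.50, and Gins1 of -0.14, and none of them passed. Cdt1 owed its high WT RT mean to library B, with 134.5 normalized counts there and 73.1 and 65.0 in libraries A and C.

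**Figure D2:**
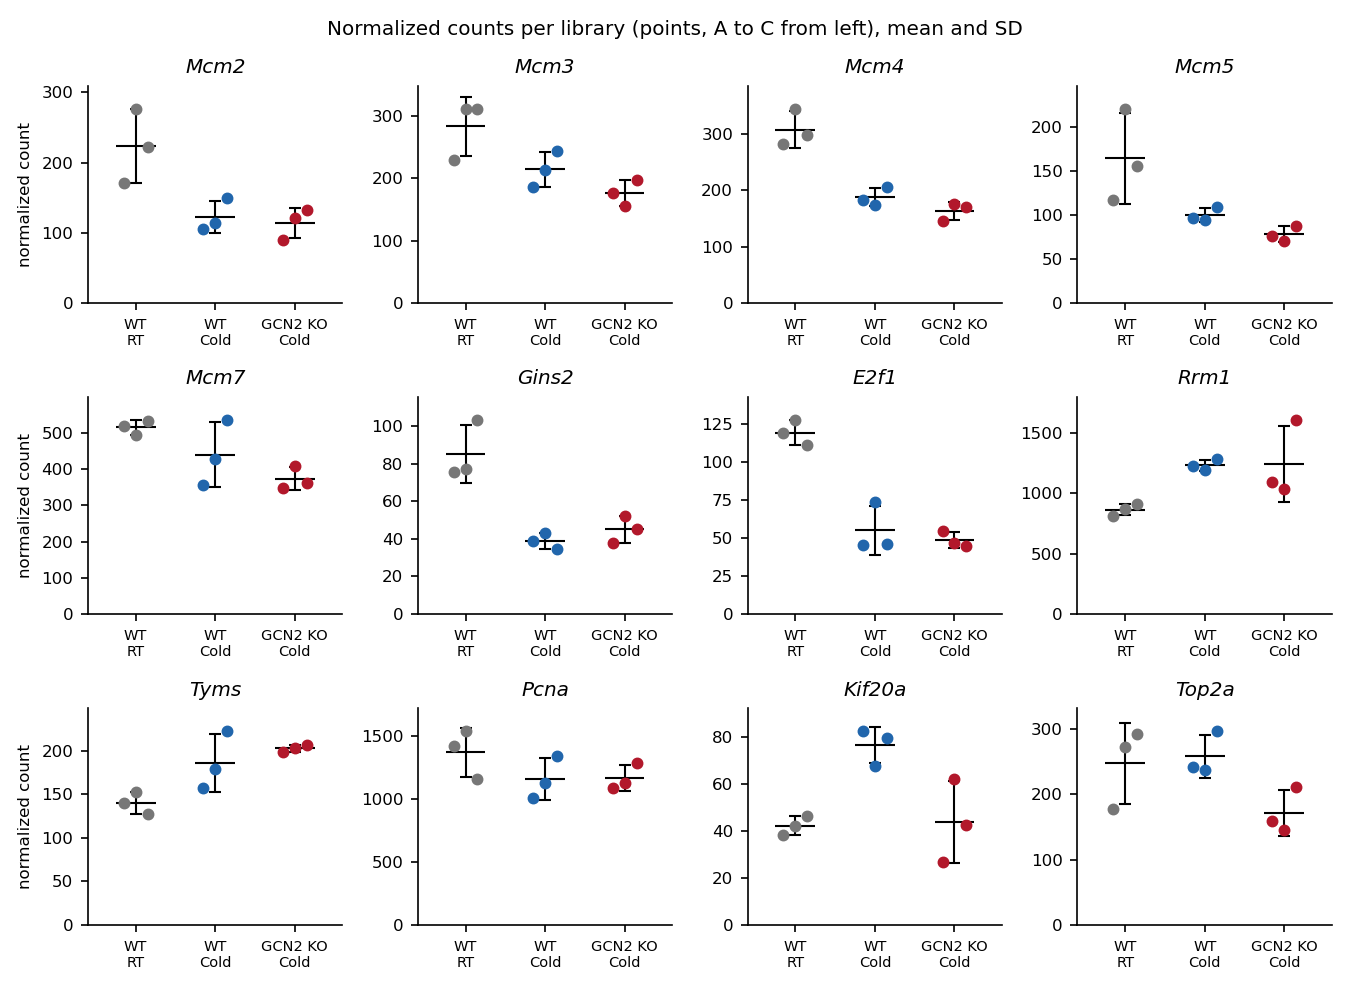
Normalized counts of 12 members in each library (points, 3 per group), with the group mean as a bar and the SD as whiskers; each axis starts at 0. For Mcm2, Mcm4, Mcm5, Gins2 and E2f1 all 6 cold libraries lie below the 3 WT RT libraries, for Rrm1 and Tyms all lie above them, and for Kif20a the 3 WT Cold libraries lie above both other groups.

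The clamp and nucleotide genes did not move one way. Rrm1, the large subunit of ribonucleotide reductase, had 811.4, 869.3 and 907.4 normalized counts in WT RT and 1221, 1187 and 1278 in WT Cold. It rose with a log2 fold change of 0.51 ± 0.08 (SE; adjusted p = 0.00408, limma), and all WT Cold libraries lay above all WT RT libraries. With CPM in place of size factors and all 9 libraries in a single fit, the log2 fold change of Rrm1 was 0.42 with an adjusted p of 0.0519. The small subunit Rrm2 had 103.5, 106.2 and 113.2 in WT RT and 73.7, 78.7 and 126.6 in WT Cold, with a log2 fold change of -0.25 that did not pass.

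Tyms, which makes thymidylate, had 140.0, 153.3 and 128.0 normalized counts in WT RT and 157.2, 179.3 and 222.6 in WT Cold. The libraries did not overlap, and the log2 fold change of 0.39 ± 0.17 (SE) had an adjusted p of 0.133 (limma). Pcna, the clamp that holds polymerases on DNA, had 1416, 1537 and 1154 in WT RT and 1006, 1125 and 1340 in WT Cold. Its groups overlapped, with a log2 fold change of -0.25 (95% interval -0.57 to 0.08). Tk1, the salvage enzyme for thymidine, had a log2 fold change of 0.18 (95% interval -0.56 to 0.92).

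Among the G1/S regulators, E2f1, an activator of the E2F family, was the only gene of 7 that passed. It had 119.2, 127.6 and 111.3 normalized counts in WT RT and 45.6, 73.7 and 45.9 in WT Cold. E2f1 fell with a log2 fold change of -1.14 ± 0.24 (SE; adjusted p = 0.0104, limma), and the groups were far apart. The repressor E2f8 had a log2 fold change of 0.17, the cyclin E genes Ccne1 and Ccne2 of -0.42 and -0.07, Foxm1 of 0.07, the maintenance methylation factor Uhrf1 of -0.22 and the checkpoint kinase Chek1 of -0.28. All 6 overlapped between the groups.

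None of the 9 mitotic cyclins, kinases and partners passed in WT Cold against WT RT with limma, DESeq2 or edgeR, and none had an unadjusted p under 0.05. Their median log2 fold change was -0.02, from -0.41 (Ccnb1) to 0.33 (Plk1), and this median lay between -0.18 (without WT RT library A) and 0.06 (without WT RT library B) under the other settings. It was also above 0 without WT Cold library A (0.05) or WT RT library C (0.04), and it was -0.17 without WT Cold library B. The mitotic kinase gene Cdk1 had 58.3, 100.2 and 75.2 normalized counts in WT RT and 69.9, 80.7 and 88.8 in WT Cold. Its 95% interval of the log2 fold change was -0.50 to 0.62. Intervals of the 38 members had half-widths between 0.19 (Rrm1) and 0.75 (Plk1) in this comparison.

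Of the 6 chromosome and spindle genes, 5 were higher in WT Cold by sign and 1 passed. Their median log2 fold change was 0.27, and it was 0.12 without WT RT library A, where 4 were higher. Kif20a, a kinesin of the central spindle that acts in cytokinesis, had 38.3, 42.0 and 46.4 normalized counts in WT RT and 82.5, 67.7 and 79.6 in WT Cold. It rose with a log2 fold change of 0.84 ± 0.21 (SE; adjusted p = 0.0207, limma). Without WT RT library A, WT RT library B or WT Cold library A, the adjusted p lay above 0.05, up to 0.0757, and with all 9 libraries in a single fit it was 0.0769 on CPM and 0.0546 with common size factors. In GENCODE M21, 29.3% of the exon bases of Kif20a are shared with Cdc23 on the opposite strand, and Cdc23 had 458.5 ± 29.1 normalized counts in WT Cold and 733.8 ± 32.0 in WT RT (SD, n = 3).

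Mki67, the gene of the proliferation antigen Ki-67, had 149.6, 266.4 and 204.1 normalized counts in WT RT and 246.4, 328.7 and 212.4 in WT Cold. The groups overlapped, and the log2 fold change was 0.36 (95% interval -0.21 to 0.92). Top2a, the topoisomerase that untangles sister chromosomes, had a log2 fold change of 0.09 (95% interval -0.39 to 0.57). Kif11, Cenpe and Cenpf had log2 fold changes of -0.15, 0.19 and 0.38.

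Counted by libraries that did not overlap between WT Cold and WT RT, 7 members were lower and 4 higher in the cold, beside 22.8% of all genes lower and 22.8% higher. The 7 were Mcm2, Mcm4, Mcm5, Cdc45, Gins2, E2f1 and Ccnb1, and the 4 were Rrm1, Tyms, Kif20a and Cenpe. WT RT library B was the highest of its group for 26 of 38 members, including 8 of 11 helicase genes and 7 of 9 mitotic genes. In its group, WT RT library B also had the highest monocyte and macrophage sum and the lowest preadipocyte and fibroblast sum. Without it, Mcm4, Gins2 and E2f1 fell, Rrm1 rose, and the median of the members was -0.02. WT Cold library C was the highest of its group for 23 members, including 10 of 11 helicase genes.

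**Figure D3:**
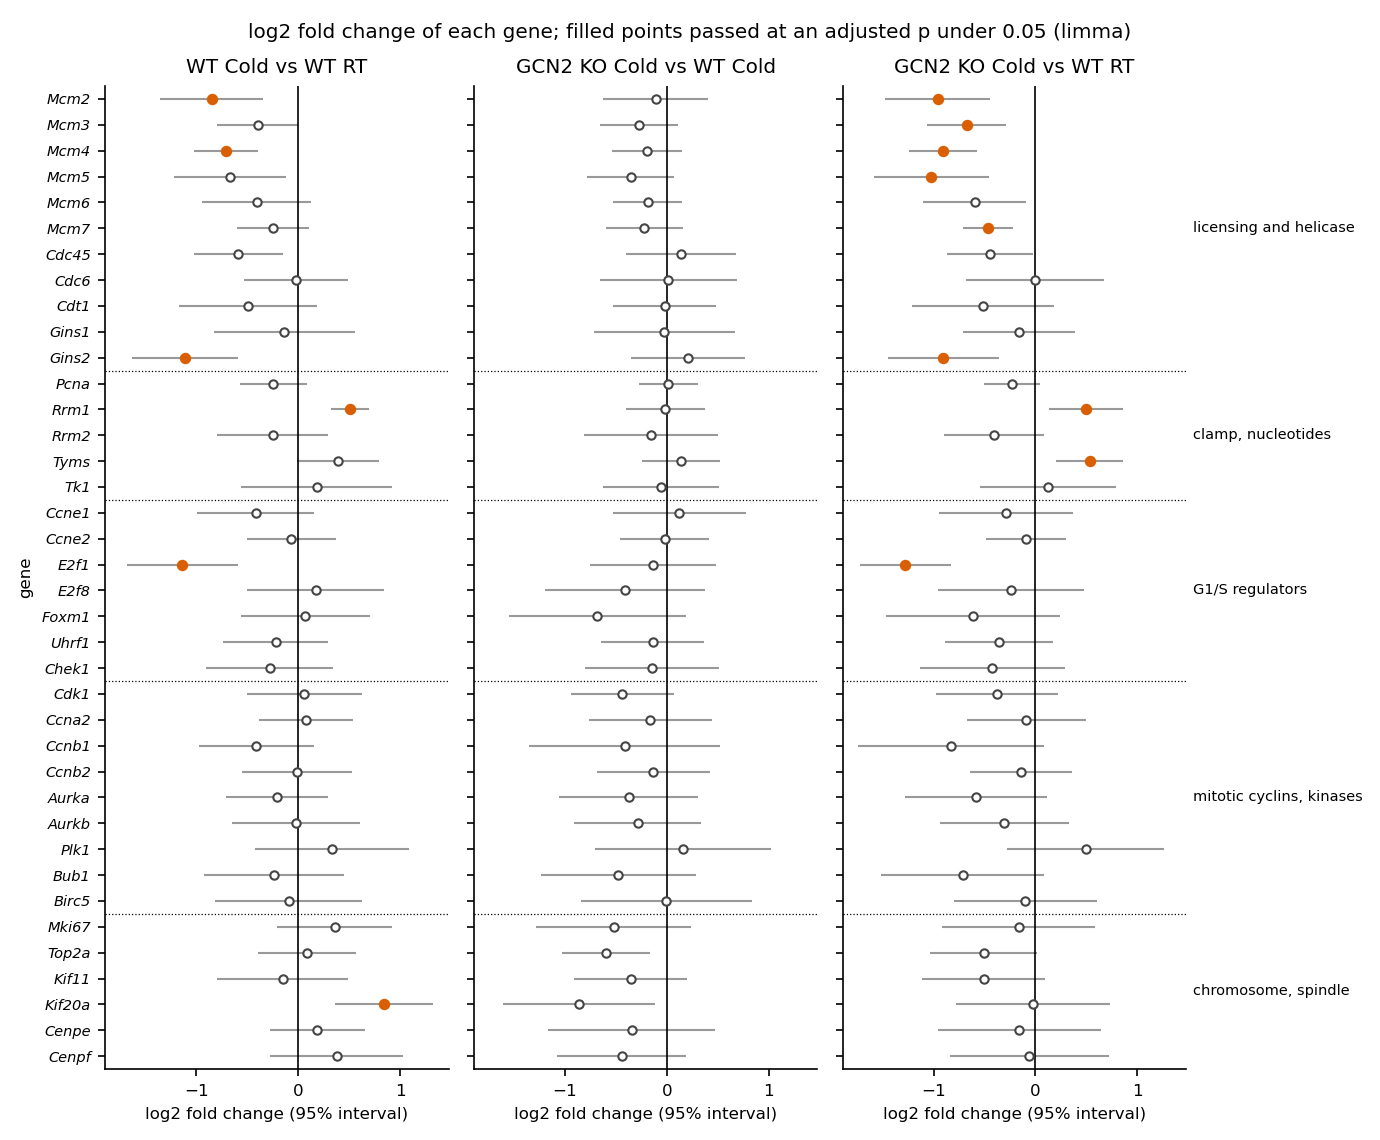
log2 fold change of each gene (points) with its 95% interval (lines) in the 3 comparisons, by role; filled points passed at an adjusted p under 0.05 (limma). Filled points are found for 6 genes in WT Cold against WT RT, for none in the KO-labelled libraries against WT Cold, and for 9 genes in the KO-labelled libraries against WT RT.

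Between the 2 cold groups, no member passed. In the KO-labelled libraries against WT Cold, 0 of 38 passed with limma, DESeq2 or edgeR, beside 0.227% of all genes lower and 0.178% higher with limma. None was called with the fold threshold, beside 0.257% of all genes, and 2 members had an unadjusted p under 0.05, a smaller share than the 2500 of 16312 genes that did. DESeq2 passed 294 genes lower and 232 higher over the whole table, and edgeR 26 lower and 18 higher. By sign, 31 members were lower in the KO-labelled libraries and 7 higher. Their median log2 fold change was -0.16, against -0.00 for all genes tested. On CPM it was -0.28, with all genes at -0.12, and without WT Cold library A it was -0.24. The direction of the genotype difference rests on labels that the Eif2ak4 counts did not bear out. Those counts, summed over all exons, could not test the deletion itself.

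All 6 chromosome and spindle genes were lower by sign in the KO-labelled libraries, and the 2 members with an unadjusted p under 0.05 were among them. Their median log2 fold change was -0.48, and under the other settings 5 to 6 of them were lower, with medians from -0.70 to -0.27. The smallest of these was seen without library B of the KO-labelled group. Top2a had 241.6, 237.1 and 296.1 normalized counts in WT Cold and 159.6, 144.6 and 211.5 in the KO-labelled libraries. The groups did not overlap, and the log2 fold change of -0.60 ± 0.19 (SE) had an adjusted p of 0.199 (limma). Kif20a had 26.8, 62.0 and 42.8 in the KO-labelled libraries, all below the WT Cold libraries given above. Its log2 fold change was -0.86 ± 0.32 (SE; adjusted p = 0.260, limma).

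Mki67 had 200.9, 109.8 and 261.2 normalized counts in the KO-labelled libraries, with a log2 fold change of -0.52 (95% interval -1.28 to 0.24). Library B of this group held the lowest values of Mki67, Top2a, Cenpe and Cenpf, and its sum over the 6 genes was 428.2 against 553.7 and 681.8 in libraries A and C. In WT Cold the sums were 751.9, 814.8 and 792.3, and in WT RT they were 500.1, 787.1 and 729.3. Since WT Cold is in both comparisons, the higher signs against WT RT and the lower signs against it here are not separate observations. Preadipocyte and fibroblast markers were lower by sign in 9 of 10 cases and skeletal muscle markers in 10 of 10 in the same comparison. So were 8 of 10 endothelial and 9 of 12 monocyte and macrophage markers. Higher by sign were 10 of 10 brown adipocyte, 6 of 6 red cell and 6 of 8 lymphocyte markers.

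The mitotic cyclins and kinases had a median log2 fold change of -0.29, with 8 of 9 lower by sign. The median was -0.05 without library B of the KO-labelled group, -0.18 without its library A, and -0.14 without WT Cold library B, where 6 of 9 were lower. Cdk1 had 69.2, 57.6 and 49.7 normalized counts in the KO-labelled libraries, just below the lowest of the WT Cold libraries, with a log2 fold change of -0.44 (95% interval -0.94 to 0.07). Bub1, a kinase of the spindle checkpoint and the least abundant member by CPM, had 23.4, 23.9 and 13.9 there and 25.2, 25.9 and 33.7 in WT Cold. Its log2 fold change was -0.48 (95% interval -1.24 to 0.28). Foxm1 had 22.3, 15.2 and 37.0 against 31.0, 45.8 and 38.8 in WT Cold, and its log2 fold change of -0.68 did not pass (95% interval -1.55 to 0.19).

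Of the helicase genes, 10 of 11 overlapped between the cold groups, and Mcm5 did not. Their median log2 fold change was -0.11, with 8 of 11 lower by sign, and it turned to 0.04 without WT Cold library C, with 5 lower and 6 higher. It was between -0.23 and -0.19 without WT Cold library A, without WT Cold library B or on CPM. The summed levels of 1386, 1577 and 1503 normalized counts in the KO-labelled libraries overlapped the WT Cold sums of 1466, 1561 and 1948. The log2 fold changes ranged from -0.35 for Mcm5 to 0.20 for Gins2. For Mcm4 the difference was -0.20 (95% interval -0.54 to 0.15), and for E2f1 it was -0.14 (95% interval -0.76 to 0.48). Pcna had the narrowest interval of the members, at 0.02 (95% interval -0.28 to 0.31), and Rrm1 was at -0.01 (95% interval -0.40 to 0.37). The intervals were wide for most members, with a median half-width of 0.59, and those of 10 of the 38 reached below -1.

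By libraries that did not overlap, 6 members were lower and 0 higher, beside 10.7% of all genes lower and 11.3% higher. They were Mcm5, Cdk1, Bub1, Top2a, Kif11 and Kif20a.

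Against WT RT, 6 of 11 helicase genes and E2f1 fell in the KO-labelled libraries, and Rrm1 and Tyms rose. This comparison and the first share the WT RT libraries, so their results are not independent of each other. Mcm2, Mcm3, Mcm4, Mcm5, Mcm7, Gins2 and E2f1 fell and Rrm1 and Tyms rose at an adjusted p under 0.05, and the other 29 members did not pass. The 7 of 38 that fell stand beside 17.8% of all genes lower at this threshold, and the 2 that rose beside 16.4% higher. Mcm5 and E2f1 were called with the fold threshold, beside 10.6% of all genes. The shares of the members were 18.4% fallen, close to the share of all genes, and 5.26% risen. By sign 34 members were lower and 4 higher, and the median log2 fold change was -0.37 against 0.01 for all genes. Without WT RT library B, 29 were lower and 9 higher, and the median was -0.22. On CPM in place of size factors, which moved the median of all genes to -0.19, 11 members fell and 0 rose, and all genes called were 326 higher and 1769 lower in place of 499 higher and 1255 lower.

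Of the 11 helicase genes, 6 fell (54.5%, beside 17.8% of all genes) and all 11 were lower by sign, with a median log2 fold change of -0.60. Under the other settings 4 to 8 of them fell, with 4 without WT RT library C and 8 on CPM, and 9 to 11 were lower by sign. Mcm5 had 75.9, 70.6 and 87.8 normalized counts in the KO-labelled libraries, all below the lowest WT RT library at 117.4. The log2 fold change was -1.02 ± 0.25 (SE; adjusted p = 0.0135, limma). Mcm4 had 146.2, 176.1 and 169.9 there, about 1.87 times lower than in WT RT (log2 fold change -0.91 ± 0.14, SE; adjusted p = 0.00229, limma). Mcm2 had 89.3, 120.6 and 131.7, with a log2 fold change of -0.96 ± 0.23 (SE; adjusted p = 0.0123, limma).

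Mcm7 had 348.3, 408.7 and 361.7 normalized counts in the KO-labelled libraries, and fell with a log2 fold change of -0.47 ± 0.11 (SE; adjusted p = 0.0110, limma). Of its exon bases, 12.6% are shared with other genes in GENCODE M21. Mcm3 had 175.3, 155.4 and 197.6 against 228.7, 310.0 and 309.9 in WT RT, with a log2 fold change of -0.67 ± 0.17 (SE; adjusted p = 0.0166, limma). Gins2 had 37.95, 52.2 and 45.1, with a log2 fold change of -0.90 ± 0.24 (SE; adjusted p = 0.0195, limma). Gse1, which shares exon bases with Gins2, had a log2 fold change of -0.32 ± 0.12 here (SE; adjusted p = 0.0738, limma). The adjusted p of Mcm3 rose to at most 0.0643 without WT RT library B or WT RT library C, and that of Gins2 to 0.0785 without WT RT library C.

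Mcm6 had 198.7, 201.1 and 181.4 normalized counts in the KO-labelled libraries and 207.8, 395.7 and 305.3 in WT RT. Its log2 fold change of -0.60 ± 0.22 (SE) had an adjusted p of 0.0690 with limma, 0.0262 with DESeq2 and 0.0499 with edgeR. Cdc45 had 140.6, 206.5 and 141.0 and did not pass (log2 fold change -0.45, adjusted p = 0.0941, limma). Cdc6, Cdt1 and Gins1 had log2 fold changes of -0.01, -0.51 and -0.16.

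E2f1 had 54.7, 46.7 and 45.1 normalized counts in the KO-labelled libraries, where the lowest WT RT library had 111.3. It fell with a log2 fold change of -1.28 ± 0.19 (SE; adjusted p = 0.00193, limma). The other 6 G1/S regulators were lower by sign, from -0.09 for Ccne2 to -0.61 for Foxm1, and did not pass.

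Rrm1 had 1087, 1031 and 1602 normalized counts in these libraries, above every WT RT library, with library C far above the others. It rose with a log2 fold change of 0.49 ± 0.16 (SE; adjusted p = 0.0433, limma), and the adjusted p was 0.182 on CPM, 0.0998 with limma without a trend and up to 0.122 without any 1 of the WT RT libraries. Tyms had 198.7, 203.2 and 206.8 and rose with a log2 fold change of 0.53 ± 0.14 (SE; adjusted p = 0.0219, limma). On CPM its log2 fold change was 0.33 with an adjusted p of 0.128, and without WT RT library A, WT RT library C, or library B or C of the knockout label it lay above 0.05, up to 0.0744. Rrm2 had 99.4, 63.0 and 84.4, with a log2 fold change of -0.41 (95% interval -0.90 to 0.08).

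No mitotic, chromosome or spindle gene passed in this comparison with limma, DESeq2 or edgeR, and 0 of them had an unadjusted p under 0.05 with limma. Top2a fell on CPM and without WT RT library A, Bub1 and Aurka fell with all 9 libraries in a single fit on CPM, and Ccnb1 fell without library C of the KO-labelled group. The 9 mitotic genes had a median log2 fold change of -0.31, from -0.83 for Ccnb1 to 0.49 for Plk1. The median was -0.18 without WT RT library B and -0.47 without WT RT library A. Ccnb1, a cyclin partner of Cdk1, had 34.6, 18.5 and 55.5 normalized counts in the KO-labelled libraries and 51.3, 76.2 and 52.9 in WT RT. The polo kinase gene Plk1 had 170.8, 78.3 and 147.9 against 80.9, 125.0 and 69.6. The 6 chromosome and spindle genes had a median of -0.16, which ran from -0.36 without WT RT library A to -0.07 without library B of the KO-labelled group, where 3 of 6 were lower, or without WT RT library B. It was also below -0.34 without library A or C of the KO-labelled group. Kif20a, at 43.8 ± 17.6 normalized counts (SD, n = 3), was close to its WT RT level of 42.2 ± 4.1 (SD, n = 3), with a 95% interval of the log2 fold change from -0.78 to 0.74.

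By libraries that did not overlap, 10 members were lower and 2 higher, beside 25.5% of all genes lower and 23.7% higher. The 10 were Mcm2 to Mcm7, Gins2, Rrm2, E2f1 and Bub1, and the 2 were Rrm1 and Tyms. By the order of the group means, 28 of 38 members were lowest in the KO-labelled libraries and 23 were highest in WT RT. For the helicase genes, 10 of 11 were highest in WT RT, and 5 of the 6 chromosome and spindle genes were highest in WT Cold. The other helicase gene, Cdc6, had a mean of 46.5 in the KO-labelled libraries and 45.3 in WT RT, although its log2 fold change was just below 0. For most members the neighbours in this order did not differ beyond the spread between libraries.

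**Figure D4:**
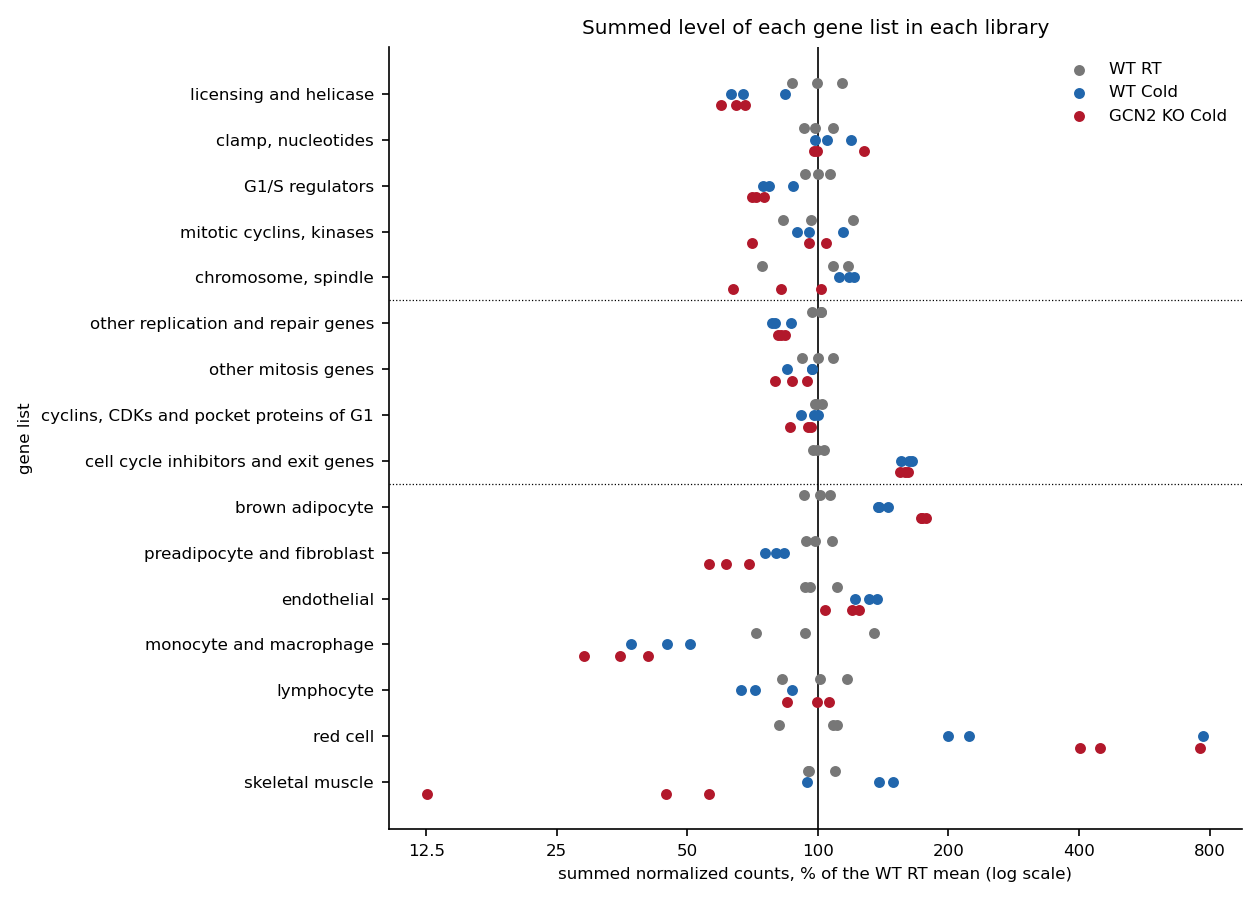
Summed normalized counts of each gene list in each library, as a percent of the WT RT mean on a log scale, with the 5 roles of the members on top, 4 other cell cycle lists in the middle and 7 marker lists below. The helicase sum is 63.1 to 83.9% in WT Cold and 59.7 to 67.9% in the KO-labelled libraries, and the monocyte and macrophage sum is 37.0 to 50.6% and 28.9 to 40.7%.

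Other cell cycle genes, from lists written with earlier results of these data known, were read beside the members. Of 48 other replication and repair genes, 44 were lower in WT Cold than in WT RT by sign, 15 fell and 1 rose, with a median log2 fold change of -0.42. Among them Rfc3, a subunit of the clamp loader, fell with a log2 fold change of -1.32, and Mcm8, a relative of the MCM ring genes, with -1.05. Orc2, a subunit of the origin recognition complex, rose with 0.51. In the KO-labelled libraries against WT RT, 20 of the 48 fell and 1 rose, with Mcm8 at -1.57, the chromatin assembly gene Chaf1a at -1.48 and Orc2 at 0.54. The shares that fell were 31.2% and 41.7%, beside 14.1% and 17.8% of all genes.

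Of 57 other mitosis genes, 5 fell and 0 rose in WT Cold against WT RT, with a median log2 fold change of -0.09. The centromere genes Cenpw and Cenpa fell with log2 fold changes of -1.12 and -0.79. In the KO-labelled libraries against WT RT, 6 fell and 0 rose, with the spindle checkpoint gene Bub1b at -1.33 and the ubiquitin ligase partner Ube2c at -0.92. These shares of the 57, 8.77% and 10.5%, were below those of all genes.

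Of 24 G1 cyclins, CDKs and pocket protein genes, 5 fell (20.8%, beside 14.1% of all genes) and 2 rose (8.33%, beside 13.6%) in WT Cold against WT RT. The pocket protein gene Rbl1 fell with a log2 fold change of -1.29 and Cdk6 with -0.98, while E2f2 rose with 1.65 and Lin37 with 0.43. E2f2 was uneven in WT Cold, with 683.1, 723.6 and 191.7 normalized counts in libraries A, B and C. In the KO-labelled libraries against WT RT, 7 fell (29.2%, beside 17.8% of all genes) and 4 rose (16.7%, beside 16.4%), with Lin9 at -1.25, Rbl1 at -1.13, E2f2 at 1.68 and Lin37 at 0.67.

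Of 18 cell cycle inhibitors and exit genes, 4 rose (22.2%, beside 13.6% of all genes) and 1 fell (5.56%, beside 14.1%) in WT Cold against WT RT. Cdkn1a, which encodes the CDK inhibitor p21, had 2252, 2771 and 2984 normalized counts in WT RT and 10962, 13789 and 12261 in WT Cold. It rose with a log2 fold change of 2.21 ± 0.13 (SE; adjusted p = 8.33e-05, limma). Gadd45g, a stress gene that can slow the cycle, rose with 1.92, and Cdkn2d, another CDK inhibitor gene, fell with -0.85. In the KO-labelled libraries against WT RT, 4 rose (22.2%, beside 16.4% of all genes) and 3 fell (16.7%, beside 17.8%), with Cdkn1a at 2.27, Gadd45g at 1.86, Cdkn2d at -0.68 and Gadd45a at -0.46. In the KO-labelled libraries against WT Cold, 0 genes of these 4 lists passed with limma or edgeR, and 2 of 48, 7 of 56, 1 of 24 and 6 of 18 genes had an unadjusted p under 0.05 in the order of the lists above, beside 2500 of all 16312 genes. DESeq2 passed Ube2c as lower (adjusted p = 0.0119, against 0.142 with limma) and the CDK inhibitor gene Cdkn2c as higher (adjusted p = 0.0181, against 0.121 with limma). Cdkn2c was named after its values were seen.

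**Figure D5:**
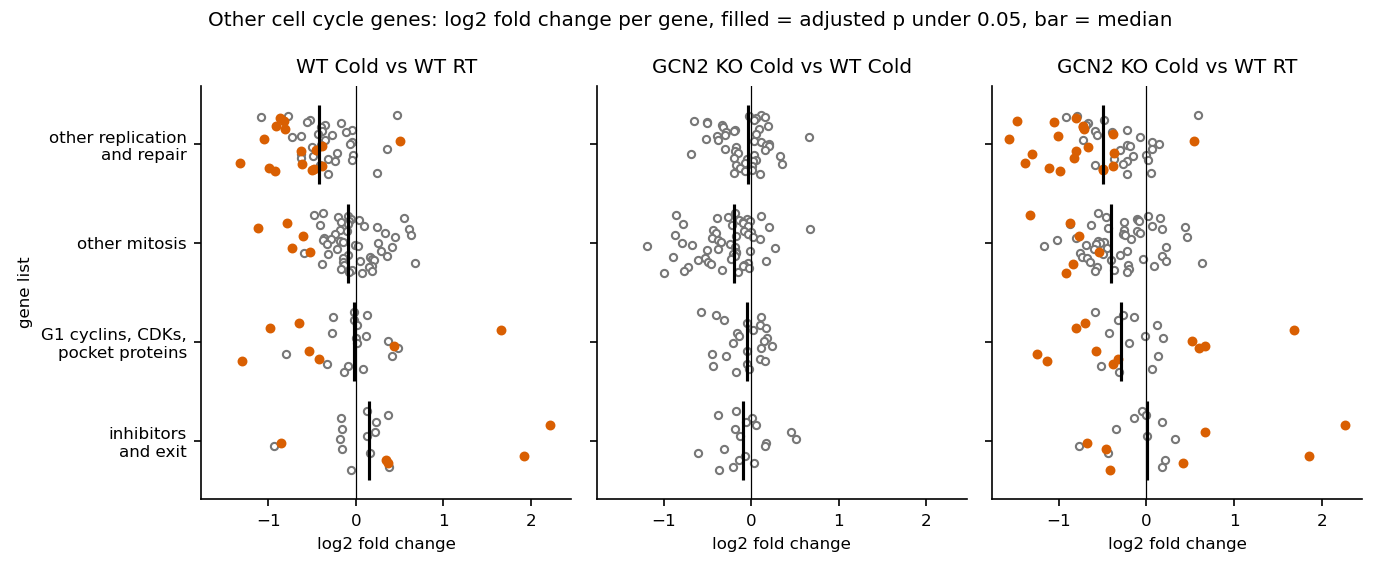
log2 fold change of each gene (points) of 4 other cell cycle lists in the 3 comparisons; filled points passed at an adjusted p under 0.05 (limma) and bars are list medians. The median of the other replication and repair genes is -0.42 in WT Cold against WT RT and -0.50 in the KO-labelled libraries against WT RT, while Cdkn1a and Gadd45g stand far to the right in both.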

How the data were processed

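RNA from brown adipose tissue was sequenced as poly(A)-selected libraries in 9 samples, 3 each of WT RT, WT Cold and GCN2 KO Cold. Per the labels and the methods of the study, the authors trimmed the reads (Trimmomatic 0.36), aligned them with STAR 2.5.2b, counted reads on exons with featureCounts (Subread 1.5.2) and compared groups with DESeq2; the submitters' notes name the build GRCm39. The kit does not mark strand, and the strand used in counting is not given in the sources used here, so opposite-strand genes that overlap cannot be told apart. The deposited values are a signal, the read count of a gene divided by a size factor that the authors set within each of the 3 tables. Their columns of the authors' own fold changes and p-values were not used, and 0 columns belonged to other samples. Each code was put in a group by the tables in which it occurs.

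The main test was limma 3.58.1 (R 4.3.3) on log2(normalized count + 1) with a mean-variance trend, a fit per table of its 2 groups, and Benjamini-Hochberg adjustment over all genes of the table. A gene passed at an adjusted p under 0.05 (rose or fell) and was called with an absolute log2 fold change over 1 as well. Fold changes are on the log2(value + 1) scale, and intervals are at 95%. DESeq2 1.42.0 and edgeR 4.0.16 were run on the recovered reads. P-values measure the spread between these samples only.

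The members, their roles and the other lists were chosen with earlier results of these data known. Values per library were planned for members called in any comparison and for the 3 highest and the 3 lowest by mean CPM, and for the other lists for the 2 largest rises and falls in each comparison; the other members with values were added after their values were seen. CPM was planned as the scale of levels. Since CPM moved the median gene, counts normalized with size factors over all 9 libraries were used instead, and this was chosen after seeing the data. Tests still use the size factors of each table, and the levels of Eif2ak4, Gse1, Cdc23, Cdkn1a and E2f2 are those of the table compared. Exon overlaps are from GENCODE M21 (GRCm38). Of 38 members, 30 had a promoter in the RefSeq table (GRCm38.p6), in which 250 bases before the start were searched. Of 19 inhibitor and exit genes, 18 were listed.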

Additional observations from a re-analysis of the deposited data

How the results depend on the processing

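No paired analysis was possible because the columns carry no replicate numbers. Other pseudocounts (0.5 and 5), a minimum mean of 20 normalized counts, limma without a trend, DESeq2, edgeR, CPM in place of size factors, a single fit of all 9 libraries on CPM, and the fold threshold left out were compared with the main values, together with a single fit of all 9 libraries with common size factors that was chosen after seeing the data, and each library was left out in turn. None of the member values that passed turned its direction. Without the fold threshold, 4624 genes and 6 members were called in WT Cold against WT RT, 66 genes between the cold groups, and 5657 genes and 9 members in the KO-labelled libraries against WT RT. Between the cold groups, 42 genes were called in the main test, against 6 without a trend, 209 with DESeq2, 189 with all libraries on CPM, 152 with all libraries and common size factors, and 3 to 22 with 1 library left out; the members' median log2 fold change was -0.28 on CPM (-0.27661 with the groups of a table and -0.27668 with all libraries), and all genes moved to -0.12 there. In the KO-labelled libraries against WT RT, 2 members were called in the main test, against 1 with a pseudocount of 5 and 5 in each fit on CPM, and the members' median was -0.57 on CPM (-0.56935 and -0.56933), where the median of all genes was -0.19. With 1 library left out, 1 to 3 members were called in WT Cold against WT RT (1 without WT RT library C, 3 without WT RT library A) and 1 to 4 in the KO-labelled libraries against WT RT (1 without WT RT library B, 4 without library C of the KO-labelled group). The cause of these shifts was not tested. Members with few reads, such as Bub1 with 12 to 46 reads per library, are limited by counting as well.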
